A study of Mus musculus with 12 samples.

Results

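The genes described here run the G2 phase and mitosis: the cyclins and kinases that start division, the spindle motors, the kinetochore proteins and the spindle checkpoint. A list of 33 such genes was taken, and a gene was measured where a row of the deposited array table carried its symbol alone. This gave 32 genes of the 22180 tested, each with 1 row. Ccnb1, the main mitotic cyclin, had no such row and was not analysed here as to its level. The genes were listed by their role and not by a measured value, but with earlier results of these data known.

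Dividing cells build these transcripts in a short wave. Cdk1 with a B-type cyclin drives entry into mitosis, Plk1 and the Aurora kinases form and correct the spindle, and the anaphase-promoting complex with Cdc20 and Ube2c ends mitosis by marking cyclins for destruction. Transcription of the wave depends on NF-Y, which binds CCAAT boxes, and on MuvB complexes, which bind a CHR element near the transcription start. One of these complexes, DREAM, silences these genes in resting cells. Most neurons of the adult cerebellum no longer divide, and the cells that still can are mainly glial precursors, microglia and cells of vessels and meninges.

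The arrays came from the cerebellum of adult mice. The 6 mice that lacked Ciz1 (Ciz1-/-) and 6 controls, 3 males and 3 females of each, make up the groups WT_male, WT_female, KO_male and KO_female, with 3 arrays each and 1 array per mouse as the protocol reads. The labels give no strain, no treatment and no account of how the allele was made, so no further limit of the model can be stated. The controls are called wild type in the source names and Ciz1+/+ in the protocol, while their genotype field reads Ciz1+/-. The age is 10 months in the protocol and 6 to 10 months in the series design. The product of Ciz1 sits in the nucleus and helps dividing cells to begin copying their DNA, and the question for this set was whether its loss went with another level of mitotic transcripts.

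Promoter sequences show what these genes share outside the arrays. RefSeq windows of assembly GRCm38.p6, from 250 bases before to 50 after the start, were held for 28 of the 33 listed genes, 29 windows in all because Prc1 has 2. The 2 Prc1 windows overlap and hold the same matches, which were counted in both. CCAAT was sought on both strands for the NF-Y box, and TTTGAA or TTTAAA on both strands for the CHR element. A stretch from 120 bases before to 30 after the start is printed for 7 genes, in the direction of transcription, with matches in capitals. Ccnb2, Cdc20, Ube2c and Cdk1 hold both motifs within the stretch, in differing orders. Cdca8 and Bub1b carry the smallest p and the largest difference between genotypes over both sexes below, and Melk has no match.
Ccnb2: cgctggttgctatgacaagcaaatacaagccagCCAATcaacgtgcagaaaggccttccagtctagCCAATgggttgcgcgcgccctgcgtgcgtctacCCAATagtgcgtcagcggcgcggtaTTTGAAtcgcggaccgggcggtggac
Cdc20: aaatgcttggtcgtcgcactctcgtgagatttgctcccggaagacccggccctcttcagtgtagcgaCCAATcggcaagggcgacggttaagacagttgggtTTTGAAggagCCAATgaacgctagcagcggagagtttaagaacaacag
Ube2c: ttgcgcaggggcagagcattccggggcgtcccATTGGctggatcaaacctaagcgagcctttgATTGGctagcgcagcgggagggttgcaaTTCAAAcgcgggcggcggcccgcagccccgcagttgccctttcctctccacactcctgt
Cdk1: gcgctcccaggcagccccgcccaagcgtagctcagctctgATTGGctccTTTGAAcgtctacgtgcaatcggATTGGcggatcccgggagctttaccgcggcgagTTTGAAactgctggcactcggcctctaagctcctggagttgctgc
Cdca8: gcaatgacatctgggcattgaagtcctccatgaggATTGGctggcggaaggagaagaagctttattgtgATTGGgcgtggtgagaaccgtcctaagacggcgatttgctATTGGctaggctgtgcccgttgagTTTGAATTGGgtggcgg
Bub1b: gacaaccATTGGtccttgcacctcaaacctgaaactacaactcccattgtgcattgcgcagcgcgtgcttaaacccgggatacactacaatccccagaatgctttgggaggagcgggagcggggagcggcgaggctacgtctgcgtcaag
Melk: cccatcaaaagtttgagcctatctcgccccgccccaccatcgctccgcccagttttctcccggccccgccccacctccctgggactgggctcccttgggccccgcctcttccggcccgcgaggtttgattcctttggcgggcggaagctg

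The printed stretches lie at chr9:70421525-70421674 for Ccnb2, chr4:118437314-118437463 for Cdc20, chr10:69352883-69353032 for Cdk1 and chr4:124936888-124937037 for Cdca8, all on the minus strand. Those of Ube2c (chr2:164769809-164769958), Bub1b (chr2:118598091-118598240) and Melk (chr4:44300797-44300946) lie on the plus strand. In Ccnb2 a run of 3 NF-Y boxes in the same orientation stands before a CHR match that starts at base 5 after the start. In the stretch of Ube2c both motifs read on the opposite strand, ATTGG and TTCAAA. In Cdca8 the CHR match and a reversed NF-Y box overlap in TTTGAATTGG. The CHR match of Bub1b starts at base 41 after the start and lies outside the stretch shown.

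Of the 29 windows of mitotic genes, 22 (75.9%) held an NF-Y box, against 37.4% of all 32851 windows of the table. A CHR match stood in 25 of them (86.2%), against 27.6% of all windows. The exact 95% binomial interval, 68.3% to 96.1%, covers counting error only and takes all windows as independent. Both motifs stood together in 21 windows (72.4%), against 10.7%. Nuf2, Nusap1 and Melk had neither. Of the 66 other genes of G2 and mitosis with a window, 76 windows in all, 64.5% of windows held an NF-Y box and 56.6% a CHR match. The windows of the mitotic genes had a median G and C content of 58.7%, against 52.7% for all, and no share was adjusted for it. CHR matches lay close to the start: 22 of 29 windows had one within 50 bases of it, against 8.28% of all windows, a range chosen after the positions were seen. A match describes letters in the window and was not tested as a binding site.

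**Figure D1:**
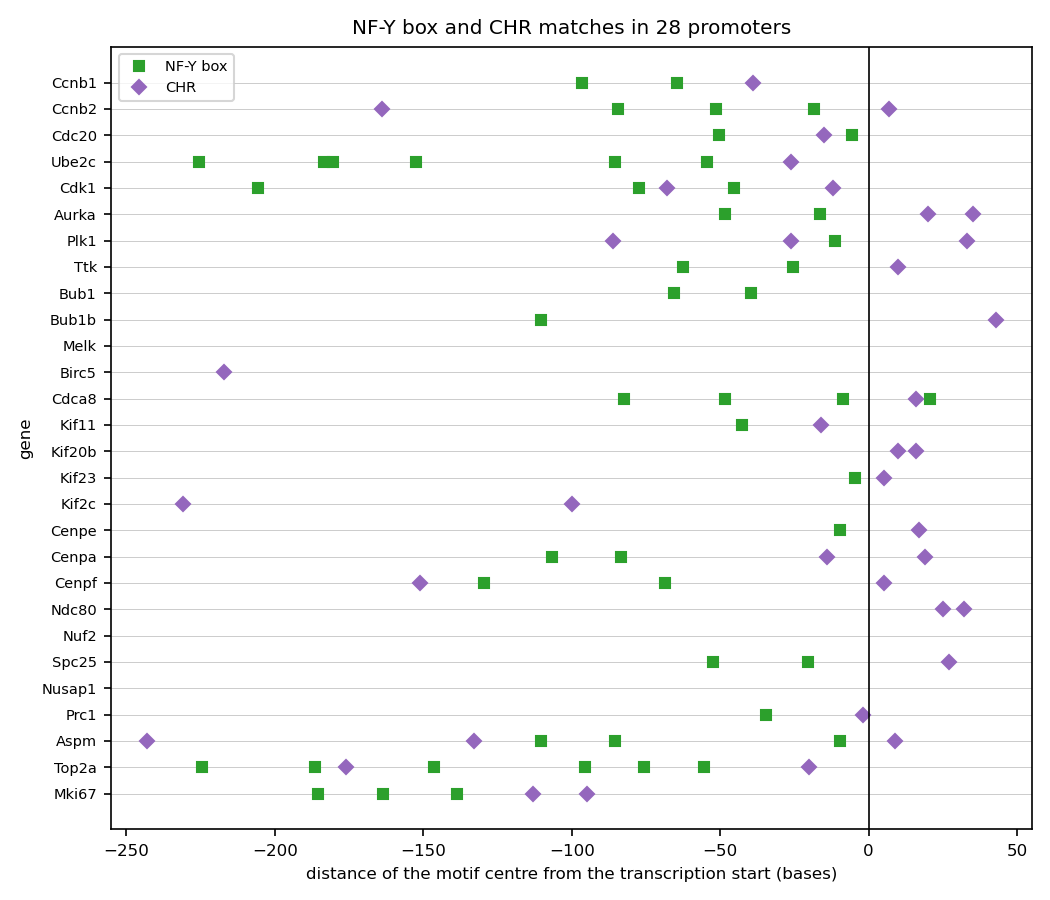
Position of each NF-Y box (green squares) and CHR match (purple diamonds) in the promoter windows of 28 mitotic genes, in bases from the transcription start, with 1 of the 2 Prc1 windows drawn. In 22 of 29 windows a CHR match lies within 50 bases of the start, and the rows of Melk, Nuf2 and Nusap1 are empty.

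The arrays showed these genes as dim. Values are log2 of the deposited intensity, and the mean over the 12 arrays ran from 4.51 for Spc25 to 7.60 for Ccnb2, with a median of 5.80 over the 32 genes. All but Ccnb2 lay below the median gene of the array, at 6.97. The files hold no detection call, so olfactory and vomeronasal receptor genes, which the cerebellum is not known to use widely, served as a gauge of dim rows. Their 1390 genes had a median of 4.30 and a 95th percentile of 6.47. Only 6 mitotic genes lay above that percentile: Ccnb2, Incenp, Bub1b, Nusap1, Aurka and Spc24. The other 26 lay between the receptor median and its 95th percentile, and were not shown to lie above background. Brightness also depends on the probes of a row, so these ranks do not order the genes by their amount of RNA.

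**Figure D2:**
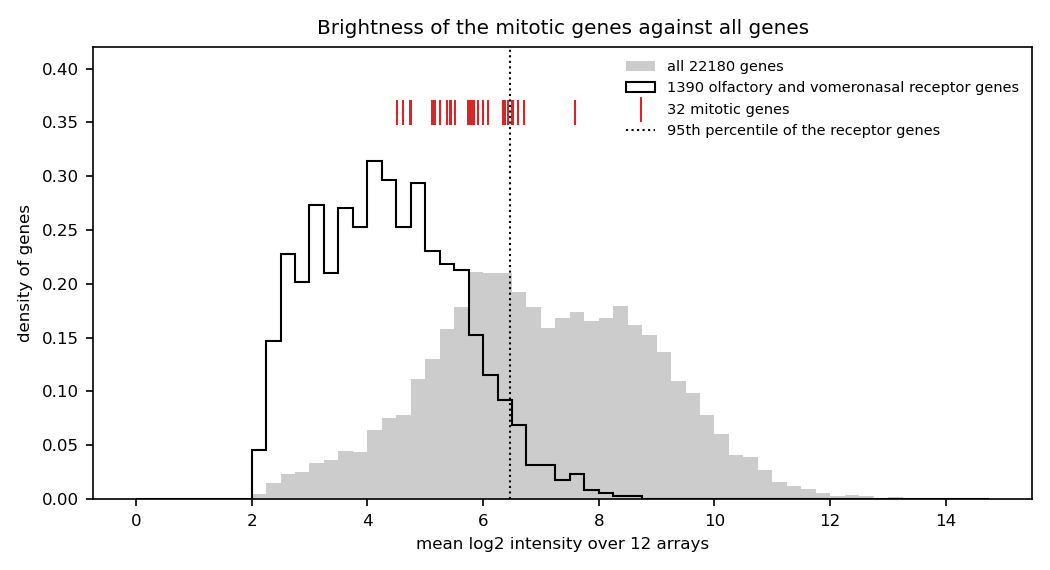
Mean log2 intensity over 12 arrays (x axis) for all 22180 genes (grey, density), 1390 olfactory and vomeronasal receptor genes (black outline) and the 32 mitotic genes (red ticks, placed at an arbitrary height). Of the red ticks, 6 lie to the right of the dotted line at 6.47, the 95th percentile of the receptor genes.

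Defining markers of the tissue were bright. The 9 neuronal markers of the cerebellum that were measured, among them Calb1, Gabra6 and Zic1, had means of 8.76 to 12.34 on the log2 scale. Array medians of the deposited intensity were 96.5 to 98.7. The Ciz1 row was 8.76 ± 0.08 in controls and 7.13 ± 0.18 in knockouts (SD, n = 6 each) with no overlap, a difference of -1.64 (SE 0.07; limma adjusted p = 1.42e-06). Choroid plexus markers varied most between arrays, with a mean log2 level of 6.27 to 7.86, and the richest array of each group stood at 7.26 to 7.86. Markers of microglia (7.46 to 7.70), oligodendrocyte precursors (7.78 to 7.90), granule cell precursors (7.25 to 7.44) and vessels and meninges (7.51 to 7.86) varied less. Between genotypes 0 of 9 granule cell precursor markers, 0 of 9 oligodendrocyte precursor markers and 0 of 11 microglia markers passed after adjustment. Their median differences were -0.05, -0.05 and 0.05. Over all genes 0.0225% passed, so this count says little for lists this short. At an unadjusted limma p under 0.05 there were 0, 1 (lower) and 2 (higher), against 4.38% of all genes higher and 4.87% lower. All 12 oligodendrocyte markers were lower in knockouts at an unadjusted limma p under 0.05, against 4.87% of all genes, and 1 passed. In females all 12 lay below the controls without overlap, against 7.41% of all genes. In males 0 of the 12 were at that p and 1 lay below without overlap, against 5.64% of all genes. Of the 11 microglia markers, 4 were higher and 0 lower at that p in males, against 2.62% and 2.8% of all genes. In females 1 was higher and 1 lower, against 4.52% and 3.98% of all genes.

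Across both sexes the mitotic genes showed no difference between genotypes that passed the test. With limma and Benjamini-Hochberg adjustment over all genes, 0 of 32 passed a threshold of 0.05 (smallest adjusted p = 0.351), where 0.0225% of all genes passed. At an unadjusted p under 0.05 there were 4 of 32, 1 higher and 3 lower in the knockout, which is 12.5% against 9.26% of all genes (4.38% higher and 4.87% lower). No gene of the set had all 6 knockout arrays on one side of all 6 control arrays, where 0.55% of all genes did (0.32% higher and 0.23% lower). The median difference was 0.00 on the log2 scale, against -0.00 over all genes tested, with 17 genes higher and 15 lower. The receptor genes, which are also dim, had a median of 0.04, with 857 higher and 533 lower in the knockout and 98 higher and 37 lower at an unadjusted p under 0.05. The averaged level of the 32 genes was 5.73 to 5.80 in the control arrays and 5.73 to 5.82 in the knockout arrays, so the groups overlapped over nearly their whole range. In bulk RNA, fewer dividing cells and less RNA per cell cannot be told apart.

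The intervals say how much could have been missed. The 95% interval of the difference stayed within 0.5 log2 units of 0 for 30 of the 32 genes and within 0.3 for 28. The exceptions at 0.5 were Bub1b, whose interval reached -0.52, and Ndc80, which had the largest spread within groups (SD 0.37, against a median of 0.11 over the set) and an interval of -0.27 to 0.51. For rows near background a change in RNA is compressed on this scale, so these bounds apply to the signal.

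**Figure D3:**
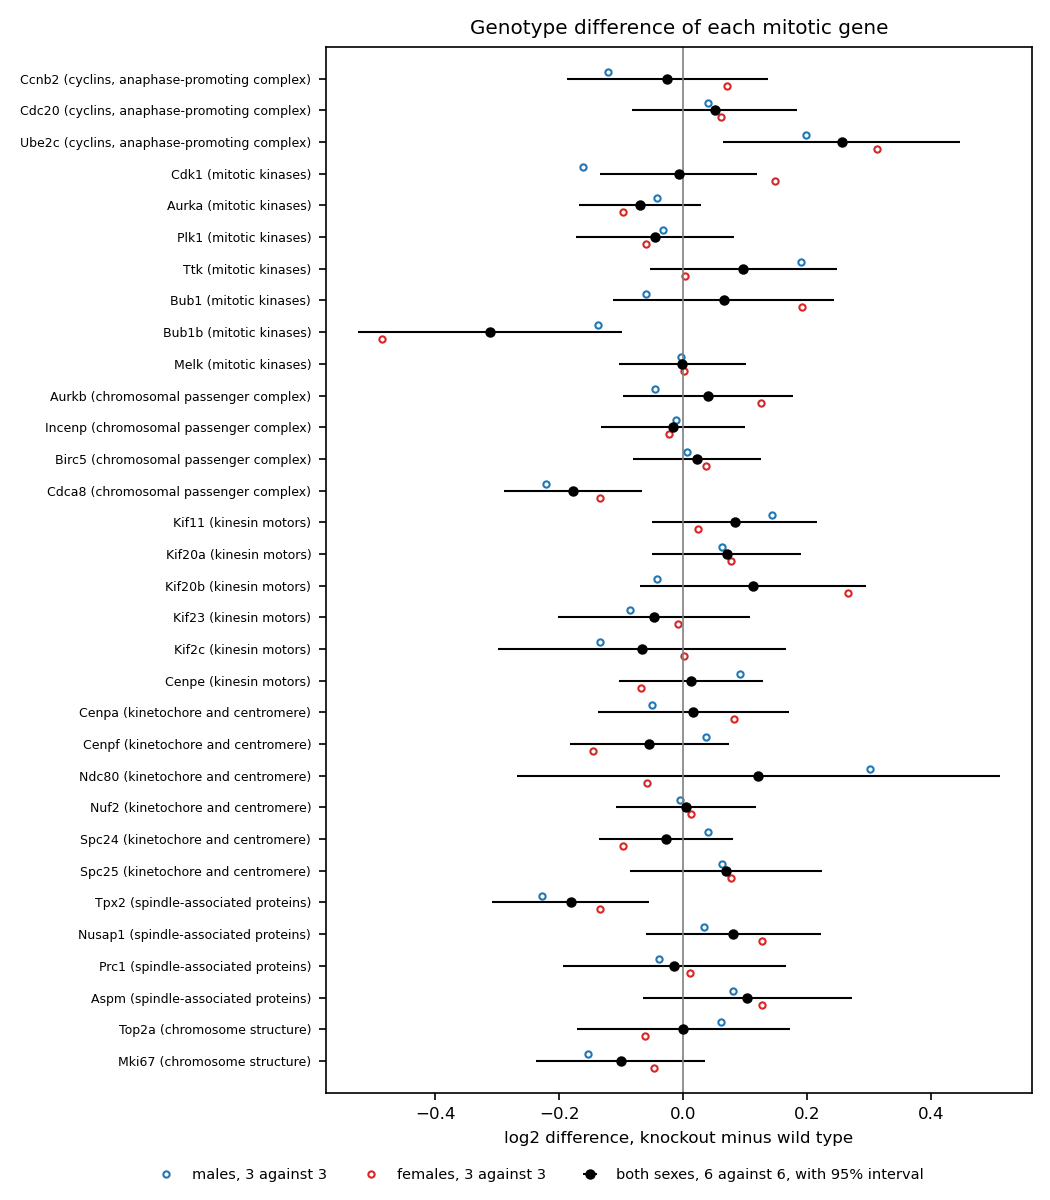
Difference between knockout and control on the log2 scale (x axis) for each of the 32 mitotic genes, grouped by role; black points give both sexes with the 95% interval of the limma fit, and open circles give males (blue) and females (red) alone. The intervals of Ube2c, Bub1b, Cdca8 and Tpx2 leave out 0 before adjustment, and none passed after adjustment over 22180 genes.

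Among the cyclin and anaphase-promoting complex genes, Ube2c stood out by size. Ube2c is the ubiquitin-conjugating enzyme of that complex. Its log2 values in control arrays were 5.26 at the lowest, 5.43 at the median and 5.50 at the highest, and in knockout arrays 5.46, 5.62 and 6.03. The groups overlapped narrowly, and KO_female replicate 3 stood above the rest of its genotype. The difference was 0.26 (SE 0.09; adjusted p = 0.462), and 0.18 without that array. Cdc20, the activator of the complex, differed by 0.05 (SE 0.06), with the same array highest at 6.62. Ccnb2, a B-type cyclin and the brightest row of the set, was 7.61 ± 0.17 in controls and 7.58 ± 0.11 in knockouts (SD, n = 6 each), with an interval of the difference of -0.19 to 0.14.

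Of the kinases and checkpoint genes, Bub1b had the largest difference of the whole set. Bub1b encodes BubR1, the checkpoint protein that holds back anaphase until chromosomes are attached, and mice with little of it are known to age early. Control arrays had 6.46, 6.86 and 6.94 as lowest, median and highest, and knockout arrays 5.89, 6.49 and 6.88. The male knockouts lay among the controls, and the 3 female knockouts at 6.20, 6.37 and 5.89 lay below every other array. The difference over both sexes was -0.31 (SE 0.10; adjusted p = 0.411). In each of the 4 groups the array richest in choroid plexus markers also had the highest Bub1b, a match seen after the values and in no other of the 32 genes. The match was narrow in WT_male, at 6.93 against 6.92 in the array poorest in these markers, and KO_female replicate 3, the next richest of its group, had the lowest Bub1b. How often genes outside the set match in this way was not counted, and whether the 2 levels are related was not tested. With the choroid plexus level as a covariate the difference was -0.23 (adjusted p = 0.494). For all 12 choroid plexus markers the knockout mean lay below the control mean (median difference -0.26, 0 passed, against 0.0225% of all genes). The log2 of their summed level ran from 11.74 to 13.68 in WT_male, 10.53 to 13.63 in WT_female, 10.72 to 13.15 in KO_male and 10.13 to 13.39 in KO_female.

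The other kinases lay close to 0. Aurka, which matures centrosomes, differed by -0.07 (SE 0.05; adjusted p = 0.663), with controls at 6.42 to 6.64 and knockouts at 6.44 to 6.54. Ttk, the kinase that opens the checkpoint, differed by 0.10 (SE 0.07; adjusted p = 0.693), with knockouts at 5.73 to 5.91 inside the control range of 5.54 to 5.97. It was 0.06 without WT_male replicate 3 and also without WT_female replicate 1, and 0.15 without WT_female replicate 3. Plk1 differed by -0.05 and Cdk1 by -0.01. Bub1, a checkpoint kinase on one of the dimmest rows, ranged from 4.44 to 4.97 in controls and from 4.52 to 4.83 in knockouts, a difference of 0.07 (SE 0.08). In Melk, a kinase of proliferating progenitors, both genotypes averaged 5.26 and the interval was -0.10 to 0.10.

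The chromosomal passenger complex carries Aurora B to centromeres and later to the midzone. Within it, Cdca8 had the smallest p of the set over both sexes. Cdca8 encodes borealin. Its control arrays were 5.13, 5.27 and 5.36 (lowest, median and highest) and its knockout arrays 4.98, 5.09 and 5.16. Only WT_male replicate 3, at 5.13, fell into the knockout range. The difference was -0.18 (SE 0.05; adjusted p = 0.351), 1.13-fold, on a row brighter than only 16.1% of genes. Its partners had smaller differences: Aurkb 0.04, Incenp -0.02 and Birc5, which encodes survivin, 0.02. Incenp, the scaffold of the complex and the second brightest row of the set, had 6.58, 6.73 and 6.80 as lowest, median and highest in controls and 6.60, 6.71 and 6.82 in knockouts, ranges that nearly coincide. The interval of Birc5 was -0.08 to 0.13.

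The kinesins and kinetochore genes gave no gene at an unadjusted p under 0.05 over both sexes. Kif11, the motor that pushes spindle poles apart, differed by 0.08 (SE 0.06; adjusted p = 0.702), with controls at 5.67 to 5.88 and knockouts at 5.68 to 6.02. It was 0.13 without KO_female replicate 2 and 0.04 without KO_female replicate 3. Over the 6 kinesins the differences ran from -0.07 for Kif2c, which takes microtubules apart, to 0.11 for Kif20b. Kif23, a motor of the central spindle, was dim, with controls at 4.51 to 4.98, knockouts at 4.63 to 4.85 and a difference of -0.05 (SE 0.07). Cenpe, the kinetochore motor that gathers chromosomes, differed by 0.01. The Ndc80 complex, which ties kinetochores to microtubules, was measured in full: Nuf2 differed by 0.00, Spc24 by -0.03, Spc25 by 0.07 and Ndc80 by 0.12. Spc25, the dimmest row of all, had controls at 4.30 to 4.68 and knockouts at 4.41 to 4.65. Ndc80 itself ranged from 4.29 to 5.45 in WT_male alone, so its difference is the least certain of the set. Cenpa, the histone H3 variant of centromeres, differed by 0.02 and Cenpf by -0.05.

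Among spindle-associated and chromosome proteins, Tpx2 had the smallest p. Tpx2 activates Aurora A and starts microtubules near chromosomes. Control arrays had 6.11, 6.17 and 6.25 as lowest, median and highest, and knockout arrays 5.82, 6.00 and 6.17. KO_female replicate 3, at 6.17, was the only knockout array inside the control range. The difference was -0.18 (SE 0.06; adjusted p = 0.422). Mki67, the gene of the proliferation antigen Ki-67, differed by -0.10 (SE 0.06; adjusted p = 0.649), with controls at 5.73 to 5.94 and knockouts at 5.58 to 5.91. It was -0.07 without KO_male replicate 1. Top2a, the topoisomerase that untangles chromosomes, averaged 5.45 in both genotypes. Nusap1, a microtubule-bundling protein, had controls at 6.37 to 6.54 and knockouts at 6.30 to 6.75, a difference of 0.08 (SE 0.06). Differences were -0.01 for Prc1 and 0.10 for Aspm, a spindle-pole protein needed for a brain of normal size.

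**Figure D4:**
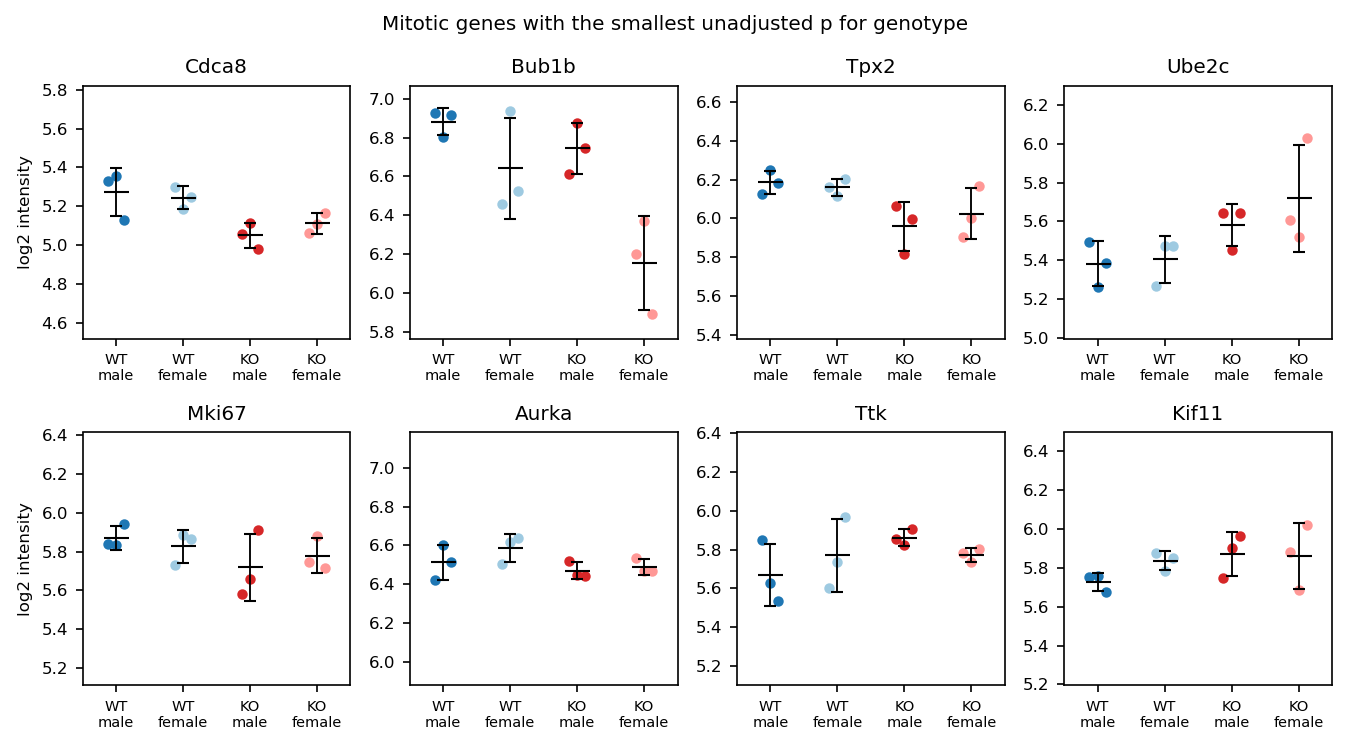
Log2 intensity (y axis, the same span of 1.3 units in each panel) of the 8 mitotic genes with the smallest unadjusted p for genotype, by group; points are arrays, and bars give the mean and SD of 3 arrays. Bub1b lies at 5.89 to 6.37 in the 3 female knockouts, and Ube2c reaches 6.03 in 1 of them.

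Of the 4 genes at an unadjusted p under 0.05 over both sexes, Bub1b, Tpx2 and Ube2c lie on chromosome 2, which also carries Ciz1. Cdca8 lies on chromosome 4. Chromosome 2 holds 7 of the 32 genes. Over all its 1864 tested genes 9.01% were at an unadjusted p under 0.05, near the 9.26% of all genes. Any part of the chromosome in these differences was not tested.

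Within males 0 of 32 genes passed (smallest adjusted p = 0.874, limma), where 0.0225% of all genes did. At an unadjusted p under 0.05 there were 2, both lower, which is 6.25% against 5.42% of all genes (2.62% higher and 2.8% lower). The knockouts lay wholly below the controls for 3 genes, Cdca8, Tpx2 and Cdk1, and wholly above for none, where 10.3% of all genes did not overlap (4.66% above and 5.64% below). Cdca8 had 5.33, 5.36 and 5.13 in WT_male and 5.05, 5.11 and 4.98 in KO_male, a difference of -0.22 (SE 0.07). Tpx2 had 6.13, 6.25 and 6.18 in WT_male and 6.06, 5.82 and 6.00 in KO_male, a difference of -0.23 (SE 0.08). Cdk1, the kinase at the centre of mitotic entry, had 5.90, 6.03 and 5.97 in WT_male and 5.89, 5.74 and 5.79 in KO_male, a difference of -0.16 (SE 0.08; adjusted p = 0.923). Ttk had 5.85, 5.63 and 5.54 in WT_male and 5.85, 5.82 and 5.91 in KO_male, a difference of 0.19 (SE 0.10; adjusted p = 0.923) with the groups overlapping, and 0.12 without WT_male replicate 3.

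Within females 0 of 32 genes passed (smallest adjusted p = 0.424, limma), where 0.0225% of all genes did. At an unadjusted p under 0.05 there were 3, 2 higher and 1 lower, which is 9.38% against 8.49% of all genes (4.52% higher and 3.98% lower). The groups did not overlap for 5 of 32 genes, where 14.9% of all genes did not (7.46% above and 7.41% below): Ube2c, Aurkb and Nusap1 were above and Bub1b and Cdca8 below. Bub1b had 6.46, 6.94 and 6.53 in WT_female and 6.20, 6.37 and 5.89 in KO_female, a difference of -0.49 (SE 0.14), or 1.4-fold. It was -0.34 without WT_female replicate 2 (adjusted p = 0.628). Ube2c had 5.27, 5.47 and 5.47 in WT_female and 5.61, 5.52 and 6.03 in KO_female, a difference of 0.31 (SE 0.12; adjusted p = 0.534). Without KO_female replicate 3 it was 0.16.

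Kif20b, a kinesin of the late spindle, showed how much 1 array can carry at this brightness. WT_female had 4.69, 5.09 and 5.17 and KO_female had 5.26, 5.16 and 5.33. The groups overlapped narrowly, and WT_female replicate 1 lay far below the others. The difference of 0.27 (SE 0.12; adjusted p = 0.573) became 0.12 without that array. Cdca8 differed by -0.13 in females (SE 0.07; adjusted p = 0.648), with WT_female at 5.19 to 5.30 and KO_female at 5.06 to 5.16.

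The genotype effect was not shown to differ between the sexes for any of the 32 genes (limma, smallest adjusted p = 0.99), and 0% of all genes passed that test. At an unadjusted p under 0.05 there was 1 of 32, Cdk1, or 3.12%, against 4.82% of all genes (2.54% with the higher effect in females and 2.28% in males). The Cdk1 difference was -0.16 in males and 0.15 in females, so the effects differed by 0.31 (SE 0.12). KO_female replicate 1, at 6.20, was the highest Cdk1 array. For Bub1b the effects differed by -0.35 (SE 0.20; adjusted p = 0.998), for Kif20b by 0.31 (SE 0.17) and for Cenpf by -0.18 (SE 0.12). Each rested in part on single arrays. Bub1b was -0.20 without WT_female replicate 2 and -0.22 without KO_female replicate 3, and Kif20b was 0.16 without WT_female replicate 1. Cenpf, a large kinetochore protein, had 5.46, 5.39 and 5.37 in WT_male, 5.34, 5.49 and 5.50 in KO_male, 5.50, 5.39 and 5.63 in WT_female and 5.48, 5.23 and 5.38 in KO_female, with overlap in both sexes. It was -0.12 without WT_female replicate 3 and -0.11 without KO_female replicate 2. Of the 32 genes, 9 were higher in the knockouts of both sexes, 8 were lower in both and 15 pointed in opposite directions.

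Females and males, averaged over genotype, differed in 0 of 32 genes after adjustment (limma, smallest adjusted p = 0.475), where 0.0361% of all genes passed. At an unadjusted p under 0.05 there were 2, or 6.25%, against 7.93% of all genes (3.75% higher in females and 4.18% lower). None had sexes that did not overlap, where 0.469% of all genes did (0.185% higher and 0.284% lower). Bub1b was lower in females, with 5.89, 6.41 and 6.94 as lowest, median and highest against 6.61, 6.84 and 6.93 in males. Its difference was -0.42 (SE 0.10), or 1.33-fold, and the sexes overlapped through WT_female replicate 2. Aspm was 5.34 ± 0.11 in females and 5.16 ± 0.17 in males (SD, n = 6 each), a difference of 0.18 (SE 0.08; adjusted p = 0.618), and 0.11 without WT_male replicate 1. Melk had 5.24, 5.27 and 5.40 as lowest, median and highest in females and 5.11, 5.22 and 5.28 in males, a difference of 0.08 (SE 0.05; adjusted p = 0.688). Nusap1 had 6.50, 6.55 and 6.75 in females and 6.30, 6.44 and 6.69 in males, a difference of 0.11 (SE 0.06; adjusted p = 0.689), and 0.07 without KO_male replicate 1. The sexes overlapped in both genes. The median over the set was 0.04, and 25 of 32 genes were higher in females. The receptor genes also had a median of 0.04, with 881 of 1390 higher in females. All genes had a median of -0.00, with 10805 of 22180 higher in females.

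**Figure D5:**
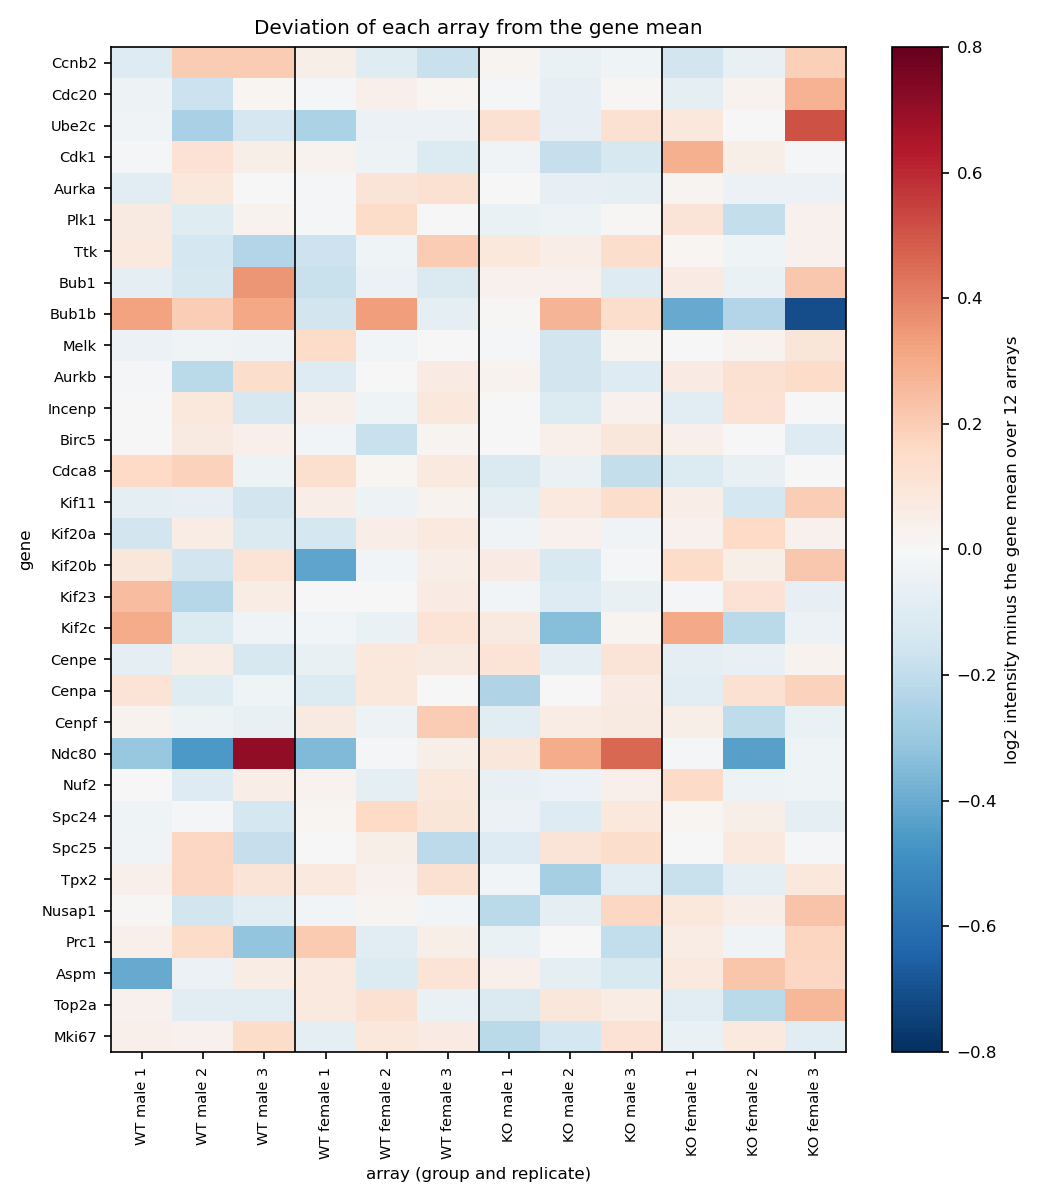
Log2 intensity of each mitotic gene (rows) in each of the 12 arrays (columns) minus that gene's mean over the arrays; red is higher and blue lower. KO_female replicate 3 is the highest array for 8 of 32 genes (the share over all genes was not counted), and Bub1b and Ndc80 have the widest rows.

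Single arrays stood apart in parts of the set. KO_female replicate 3 was the highest of the 12 arrays for 8 of the 32 genes, and no other array was highest for more than 4. How often it was the highest over all genes was not counted. The receptor genes averaged 4.42 in this array, in a range of 4.28 to 4.44 over the 12 arrays. Over the 3 cyclin and anaphase-promoting complex genes this array averaged 6.81, and the other 11 lay between 6.41 and 6.53. WT_male replicates 2 and 3 were each the lowest for 6 genes. Over all 32 genes the same KO_female array averaged 5.82, with the others at 5.73 to 5.80, so its excess was small for the set as a whole.

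A further 83 genes of G2 and mitosis were listed to place the set in its pathway, and 79 were measured. None passed for genotype over both sexes (limma, smallest adjusted p = 0.329), where 0.0225% of all genes did. At an unadjusted p under 0.05 there were 11, 4 higher and 7 lower, which is 13.9% against 9.26% of all genes, and the median difference was -0.01. Kpna2, an importin that also serves mitosis, was 7.83 ± 0.11 in controls and 7.99 ± 0.06 in knockouts (SD, n = 6 each), a difference of 0.16 (SE 0.04). Cks1b, a small subunit of Cdk complexes, differed by 0.21 (SE 0.07; adjusted p = 0.467). Stmn1, a microtubule-destabilizing protein that neurons also make, differed by -0.19 (SE 0.06; adjusted p = 0.438), and the dim gene Shcbp1 by -0.18 (SE 0.07). The brightest of the list also serve cells that do not divide. Zwint, a kinetochore protein whose RNA is abundant in neurons, averaged 11.42 in controls and 11.33 in knockouts. Ckap5, Bub3 and Numa1 differed by 0.02, 0.07 and 0.02.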

How the data were processed

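Total RNA of 12 mouse cerebella was hybridised to Affymetrix whole-transcript arrays. Per the labels, the authors ran RMA on core exons in Expression Console, and the deposited values are an intensity on a linear scale. The submitters' processing notes list Transcriptome Analysis Console 3.0 too. A genome build is not given in the sources used here. As intensities, they were analysed as log2 of every deposited value, with no pseudocount, filter or further normalization.

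Of 41345 rows, 23521 had 1 gene symbol, 1814 several and 16010 none in GEO's platform annotation. The brightest row of a gene was used. Groups came from the source names; replicate numbers follow accession order and pair nothing. Limma 3.58.1 in R 4.3.3 fitted a mean per group over all 12 arrays (8 residual degrees of freedom), with eBayes moderation, two-sided tests and Benjamini-Hochberg adjustment over 22180 genes at a threshold of 0.05. The number of arrays limits the precision.

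Full values are given for the 8 mitotic genes with the smallest p for genotype over both sexes, the 4 with the smallest p in each other contrast, the 4 brightest and the 3 dimmest; other members appear as examples chosen after their values were seen. Genes and lists were chosen with earlier results of these data known. Alternatives covered the row per gene, normalization, a pseudocount of 16, a brightness filter, an intensity trend, array weights, a choroid plexus covariate, fits within a sex and leaving out each array.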

Additional observations from a re-analysis of the deposited data

Results flagged for a closer look

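In 6 of the 66 sets of 6 arrays examined, 1 array stood apart from the other 5 by a gap beyond Dixon's 95% critical value; chance alone gives about 1 in 20. In the controls these were Bub1 in WT_male replicate 3 (4.97, the others at 4.44 to 4.57), Melk in WT_female replicate 1 (5.40, the others at 5.21 to 5.25) and Birc5 in WT_female replicate 2 (4.98, the others at 5.14 to 5.23). In the knockouts they were Cdc20 in KO_female replicate 3 (6.62, the others at 6.26 to 6.37), Ube2c in the same array (6.03, the others at 5.46 to 5.65) and Kif20a in KO_female replicate 2 (6.01, the others at 5.82 to 5.88). Cdc20 and Ube2c act on the same ubiquitin ligase and are high in the same array; any common source was not tested.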

How the results depend on the processing

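In each of the 5 contrasts 0 mitotic genes passed after adjustment under every alternative run, with a smallest adjusted p of 0.198 (Bub1b between the sexes, intensity trend). Leaving out each array in turn also gave 0, with smallest adjusted p from 0.267 (sex) to 0.899 (interaction), and the number at an unadjusted p under 0.05 ran from 4 to 6 over both sexes and from 1 to 4 within males or females. The 27 single-gene differences that were refitted (Ciz1 and the genes with the smallest p in each contrast) kept their sign under each alternative that could give them; the other differences in the text were not refitted. Over genes above the median brightness Ccnb2 was the 1 mitotic gene left, with no call. The count at an unadjusted p under 0.05 in males was 4 with the choroid plexus covariate and 1 with an intensity trend; the cause was not tested. Against the median of all genes in place of the receptor genes, 1 mitotic gene counted as bright; this follows from the higher bar. With TTTGAA alone, 75.9% of the windows held a CHR match. Ciz1 kept its call under every alternative and without any array (-1.69 to -1.53). No paired analysis was possible because the labels give no replicate numbers shared between groups. Brightness near background limits what a difference of these rows can show.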

Other observations

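Rows that carry 2 symbols were left out of the set, and 3 of them name a mitotic gene. The 2 rows of Top2a with Taf1d averaged 7.21 and 8.19 in controls and 7.11 and 8.09 in knockouts, differences of -0.09 and -0.10, and are brighter than the Top2a row used. The row of Nusap1 with Oip5 averaged 4.94 in controls and 5.02 in knockouts. Which of the 2 genes such a row reports cannot be told apart here.

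Anln, which encodes the cytokinesis protein anillin, had the largest difference among the other genes of G2 and mitosis, at -0.35 (SE 0.14; limma adjusted p = 0.51), chosen here with its values in view. Myelinating oligodendrocytes are known to make Anln as well. The means of all 12 measured oligodendrocyte markers lay below those of the controls, with a median difference of -0.28. Of these, 1 passed (Opalin, -0.45, limma adjusted p = 0.037), where 0.0225% of all genes did. The 12 markers had a mean log2 level of 9.03 to 9.22 in control arrays and 8.70 to 9.16 in knockout arrays. The part of these cells in the Anln difference was not tested.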
